A study of Mus musculus with 25 samples.

Results

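The Zfp genes are the mouse genes named for an encoded zinc finger protein, and 258 of the 378 in the deposited expression table are described here. These members were selected on the mean FPKM of the 3 WT libraries, which had to be at least 1, and Zfp143, the gene deleted in the study, was left out. FPKM are fragments divided by the length of the gene and the total of the library, and the whole table holds 23116 genes. RNA was measured in HSLAM cells, which are bone marrow cells sorted as LSK+ CD150+ CD48- and enriched for hematopoietic stem cells, from 3 Znf143 f/f x Rosa26ERT2-Cre- mice (WT) and 3 Znf143 f/f x Rosa26ERT2-Cre+ mice (KO, Znf143 -/-). Both genotypes carried floxed Znf143 alleles, with loxP sites around exon 1, on a C57BL/6 background and were given tamoxifen at the middle dosage over 10 days, while only KO mice carried the Cre transgene, which the Rosa26 locus drives in most cell types. The mice were males of 8 to 12 weeks. Deletion of the gene and presence of Cre cannot be told apart in this design. The labels of the samples call the KO genotype a CTCF knockout, whereas the study describes a deletion of Znf143, and the question was how gene expression in stem cells differed after this deletion.

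Most Zfp proteins hold tandem C2H2 zinc fingers, short loops folded around a zinc ion that together read a stretch of DNA. Many also carry a KRAB domain, which recruits the corepressor Trim28 and through it the histone methyltransferase Setdb1 to silence retroelements and other targets, and some carry a SCAN domain, which pairs proteins with each other. KRAB zinc finger genes arose by repeated local duplication and lie in clusters of similar neighbours. A few Zfp proteins are of other kinds, such as the CCCH proteins that bind AU-rich mRNA and speed its decay. ZNF143 itself is a zinc finger activator that binds promoters. Among the 258 members, 253 were protein-coding genes, 3 were transcribed pseudogenes and 2 were antisense RNAs by GENCODE M21. Among the 253 encoded proteins, 247 had at least 1 C2H2 finger, with a median of 10 and a maximum of 30. A KRAB pattern was found in 137 of them and a SCAN pattern in 10.

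The deleted gene checked the labels. Zfp143 was measured at 3.09, 4.45 and 3.68 FPKM in WT1 to WT3 and at 0.156, 0.299 and 0.272 FPKM in KO1 to KO3, and no KO library reached a WT library. The libraries held from 38643255 to 57895793 fragments on genes. The third KO library had been divided by the total of the second KO library, so that its FPKM were 1.197 times too high, and every level given here was rescaled with size factors (median of ratios), which also raised the levels of WT2 and KO1 (factors of 0.906 and 0.927). The second WT and the first KO library stood low for the Zfp genes. WT2 was the lowest of the 3 WT libraries in 170 of 258 members (65.9%), against 47.1% of all 12392 tested genes with a WT mean of at least 1. The first KO library was the lowest of its genotype in 161 members (62.4%), against 49.3% of those genes. On the log2 scale, the median member was 0.09 below its mean of 6 libraries in WT2 and 0.12 and 0.11 above it in WT1 and WT3. In KO1 to KO3 it was 0.11 below, 0.02 above and 0.03 below that mean, whereas the medians over the 12392 genes lay between -0.03 and 0.01 in all 6 libraries.

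**Figure D1:**
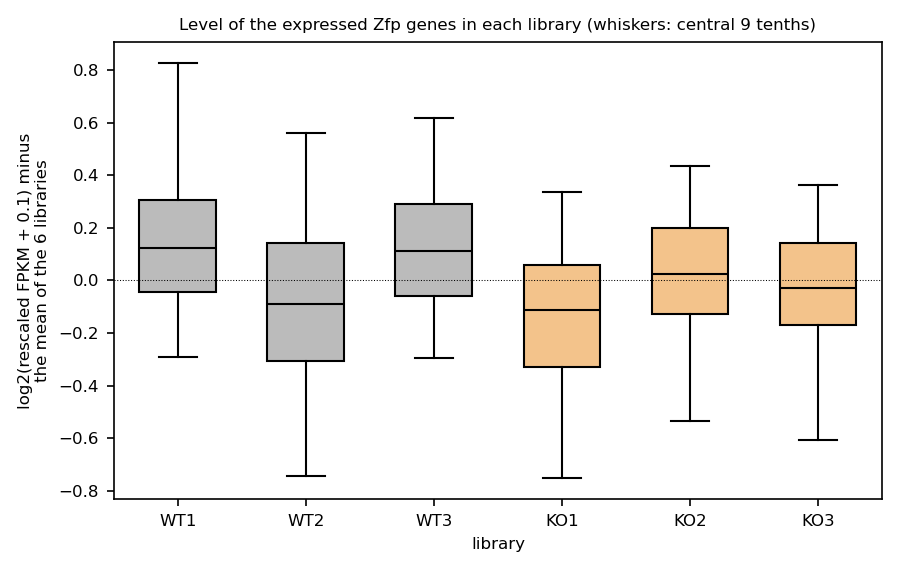
Level of the 258 Zfp genes in each library, as log2(rescaled FPKM + 0.1) minus the mean of the gene over 6 libraries, with boxes for the quartiles, lines for the medians and whiskers from the 5th to the 95th percentile. The median lies 0.12 and 0.11 above 0 in WT1 and WT3, and 0.09 and 0.11 below 0 in WT2 and KO1.

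Among the members called by the test, Zfp93, Zfp428 and Zfp146 fell furthest in KO and Zfp971 rose furthest. In the limma test across all 19296 genes tested, 22 of the 258 members (8.53%) were called lower in KO at an adjusted p under 0.05, where the background over all genes was 2.99%. Only 6 members (2.33%) were called higher, where the background was 3.01%. The median log2 fold change of the members was -0.06, against 0.01 over all tested genes, and 145 members (56.2%) lay below 0. All 3 KO libraries lay below all 3 WT libraries in 65 members (25.2%, background 15.3%) and above them in 40 (15.5%, background 15.5%). Among tested genes with a WT mean of at least 1, the shares called were 3.95% lower and 2.57% higher. In that set, all KO libraries lay below all WT libraries in 17.6% of genes and above them in 14.6%. In bulk RNA, fewer cells of a type and less RNA per cell cannot be told apart. The counts moved with single libraries. Without WT2 they were 37 lower and 9 higher and the median was -0.17, and without KO1 they were 26 and 10. The calls over all genes rose too, from 577 lower and 580 higher to 1105 and 1154 without WT2. Without KO1 they were 982 and 1157. Without WT1, WT3 or KO3 they were 6 and 1 in each case, and without KO2 they were 8 and 1, while the calls over all genes fell likewise (577 lower to 190 without WT1, for example). On the FPKM as deposited 11 members were lower and 3 higher, beside 304 and 529 of all genes. The median of the members was then 0.05, beside a median of 0.11 over all genes. The sign of the members' median thus depended on the scaling, while it lay below the median of all genes on both scales.

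Levels of marker genes also moved with genotype, and their part in these results was not tested. All 7 stem cell markers were detected in every library, with summed levels of 473 to 528 FPKM in WT and 753 to 800 FPKM in KO, of which Ly6a made up most. Cd48 and Flt3, which mark cells outside the sorted gate, were called higher in KO and summed to 14.8 to 16.1 FPKM in WT and 35.7 to 36.2 FPKM in KO. Among 10 of the 11 mature lineage markers found in the table, summed levels were 469 to 525 FPKM in WT and 571 to 886 FPKM in KO, mostly Pf4, a platelet gene. Elane, which encodes neutrophil elastase, was the only one of the 10 that was called, and it was higher in KO, at 0.451, 0.0830 and 0.809 FPKM in WT and 2.95, 10.97 and 9.85 FPKM in KO (log2 fold change 3.95, SE 0.71, adjusted p = 0.0283). Mpo, another gene of early myeloid cells, was measured at 0.671, 2.41 and 0.678 FPKM in WT and 1.38, 5.07 and 4.02 FPKM in KO (log2 fold change 1.46, SE 0.63, adjusted p = 0.215), with overlapping genotypes. Both were lower in KO1 than in KO2 and KO3. Cd3e and Ly6g were each at 0 in at least 1 library and too low to be tested, and neither passed 0.217 FPKM in any.

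**Figure D2:**
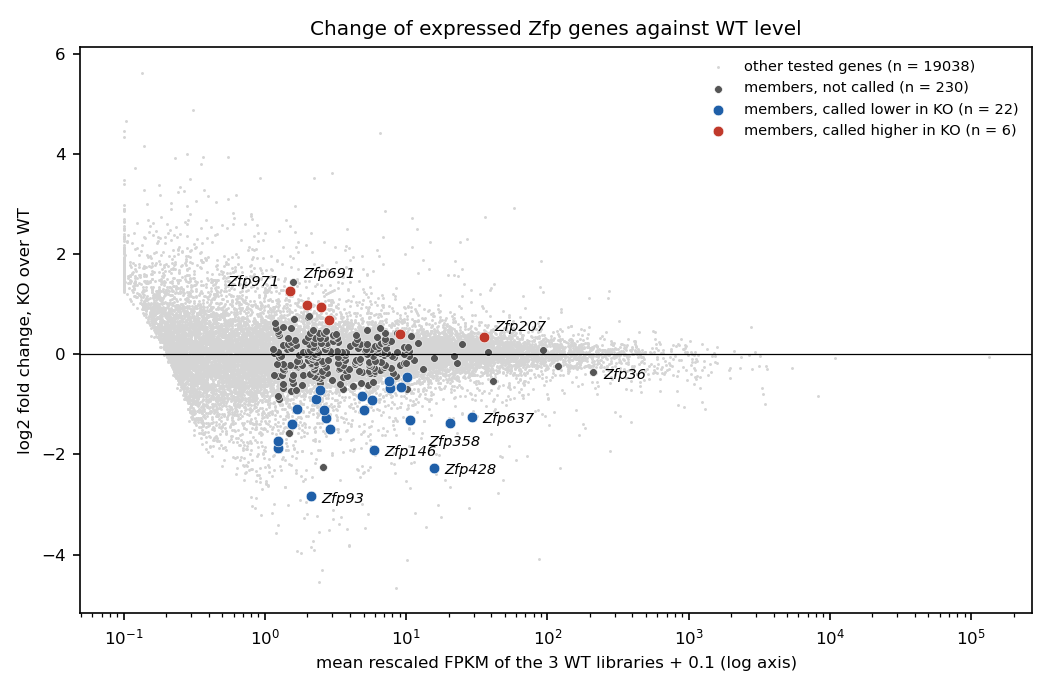
Log2 fold change of KO over WT against the mean rescaled FPKM of the 3 WT libraries plus 0.1 on a log axis, for 258 Zfp genes (dark and coloured points) and the other 19038 tested genes (grey). The 22 members called lower reach -2.84 and the 6 called higher reach 1.27.

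Zfp93, a KRAB zinc finger gene with 13 fingers at chr7:24270420-24277794, fell furthest. It was measured at 2.44, 1.35 and 2.27 FPKM in WT1 to WT3 and 0.262, 0.197 and 0.123 FPKM in KO1 to KO3, 9.60% of the WT mean (log2 fold change -2.84, SE 0.30, adjusted p = 0.00524). The KO libraries lay far below the WT libraries, and WT2 was the lowest WT library. 11.4% of its 76-base exon windows also occur in another gene, so some of its fragments could not be placed with certainty. Zfp428, a gene at chr7:24507006-24515682 whose product has a single C2H2 finger, was measured at 14.8, 17.6 and 14.3 FPKM in WT and 3.24, 3.03 and 3.09 FPKM in KO (log2 fold change -2.27, SE 0.11, adjusted p = 3.38e-04). The libraries of each genotype were close together, and WT2 was here the highest. 17.7% of its exons overlap AC161166.1 on the other strand, and the counting kept no strand. Zfp146, at chr7:30161269-30169750, encodes a protein made of little but zinc fingers, 10 in all. It was measured at 6.44, 4.71 and 6.28 FPKM in WT and 1.99, 1.16 and 1.32 FPKM in KO (log2 fold change -1.91, SE 0.23, adjusted p = 0.00767), with KO1 the highest KO library.

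Zfp354c, a KRAB gene at chr11:50811086-50827724, was measured at 1.08, 1.12 and 1.22 FPKM in WT and 0.126, 0.311 and 0.326 FPKM in KO (log2 fold change -1.86, SE 0.29, adjusted p = 0.0181). Its WT level lay just above the threshold of 1, and KO1 was the lowest library. Zfp583, a KRAB gene at chr7:6315660-6331285, was measured at 1.304, 0.681 and 1.43 FPKM in WT and 0.288, 0.221 and 0.274 FPKM in KO (log2 fold change -1.72, SE 0.30, adjusted p = 0.0252). WT2 lay between the other WT libraries and the KO libraries. Zfp74, a KRAB gene with 18 fingers at chr7:29930815-29954089, was measured at 3.03, 2.33 and 3.02 FPKM in WT and 0.640, 1.14 and 1.07 FPKM in KO (log2 fold change -1.49, SE 0.24, adjusted p = 0.0197). Zfp28, a KRAB gene at chr7:6383295-6396915, was measured at 1.79, 0.873 and 1.68 FPKM in WT and 0.455, 0.464 and 0.477 FPKM in KO (log2 fold change -1.39, SE 0.28, adjusted p = 0.0398). The 3 KO libraries of Zfp28 were nearly equal, and the spread lay in WT. Zfp354c, Zfp583 and Zfp28 were members through their WT values alone, since their means over all 6 libraries lay under 1 FPKM. Zfp358, with 9 fingers and no KRAB pattern at chr8:3493138-3497208, was measured at 22.7, 18.6 and 19.2 FPKM in WT and 6.52, 8.69 and 8.13 FPKM in KO (log2 fold change -1.37, SE 0.14, adjusted p = 0.00460). The calls of Zfp354c, Zfp583, Zfp74 and Zfp28 were each lost when WT1, WT3 or KO3 was left out, with adjusted p values of up to 0.158 over the alternatives, while none of the 4 changed direction under any. Zfp93, Zfp428 and Zfp146 were called under all 16 alternatives of the fit, and Zfp358 with each of the 6 libraries left out in turn.

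The other 13 members called lower, named after their values were seen, had smaller changes. Zfp444 (log2 fold change -1.31), a SCAN gene with 4 fingers, and Zfp637 (-1.26), with 6 fingers, were the most precise. Zfp637 was the highest expressed member called lower, at 30.6, 28.1 and 29.1 FPKM in WT and 13.3, 11.8 and 11.5 FPKM in KO (adjusted p = 0.00111). Zfp444 was measured at 10.6, 10.96 and 10.2 FPKM in WT and 3.77, 4.41 and 4.47 FPKM in KO (adjusted p = 0.00175). Both were called under all 16 alternatives of the fit. Zfp2 (-1.27), Zfp85 (-1.12), Zfp213 (-1.11), Zfp607a (-1.08), Zfp110 (-0.92), Zfp60 (-0.88), Zfp317 (-0.83), Zfp628 (-0.71), Zfp608 (-0.68), Zfp24 (-0.65), Zfp692 (-0.54) and Zfp266 (-0.45) followed, with adjusted p values from 0.0103 (Zfp24) to 0.0499 (Zfp607a). None of these last 12 kept its call without WT1 or without WT3. Zfp213 shares 46.5% of its exon bases with Gm26695 on the other strand, and Zfp85 shares 14.4% with Zfp85os, so their own level is uncertain. In 18 of the 22 members called lower, WT2 was the lowest WT library.

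Promoters of the lowered members are shown where they hold either of 2 short motifs that form part of the element bound by ZNF143, ACTACAA and CCCAGNATG, sought on both strands. The motifs were sought in whole RefSeq promoter windows (250 bases before to 50 after the start), of which a stretch of 120 bases is printed for each gene, on GRCm38.p6, written 5' to 3' on the strand of the gene, with the motif in capitals. Zfp219 and Zfp691 are added because they were the 2 members with both motifs.
Zfp93 (chr7:24270318-24270437, plus strand): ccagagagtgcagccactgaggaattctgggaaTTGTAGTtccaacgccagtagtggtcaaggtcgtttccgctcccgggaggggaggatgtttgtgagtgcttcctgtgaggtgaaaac
Zfp358 (chr8:3493038-3493157, plus strand): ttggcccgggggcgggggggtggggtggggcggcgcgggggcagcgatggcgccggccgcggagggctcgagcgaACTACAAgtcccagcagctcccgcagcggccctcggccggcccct
Zfp692 (chr11:58306969-58307088, plus strand): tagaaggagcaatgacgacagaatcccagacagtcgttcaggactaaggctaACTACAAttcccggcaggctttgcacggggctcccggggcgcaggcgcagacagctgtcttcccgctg
Zfp607a (chr7:27860485-27860604, plus strand): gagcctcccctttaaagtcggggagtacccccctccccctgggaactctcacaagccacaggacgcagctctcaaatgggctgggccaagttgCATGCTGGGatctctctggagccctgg
Zfp219 (chr14:52019694-52019813, minus strand): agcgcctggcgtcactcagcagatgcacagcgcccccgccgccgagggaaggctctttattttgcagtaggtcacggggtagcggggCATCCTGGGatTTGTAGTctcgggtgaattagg
Zfp691 (chr4:119174296-119174415, minus strand): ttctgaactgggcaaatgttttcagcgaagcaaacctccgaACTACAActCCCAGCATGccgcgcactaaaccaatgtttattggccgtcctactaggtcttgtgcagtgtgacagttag

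Zfp358 and Zfp692 held ACTACAA on the strand of the gene and Zfp93 held it on the other strand, and Zfp607a held CCCAGNATG on the other strand across its RefSeq start. In Zfp219 and Zfp691 both motifs lay side by side, with 2 bases between them. Windows were given for 211 of the 258 members, and 17 of these (8.06%) held either motif, against 5.05% of all 32851 windows and 6.84% of the 11046 tested genes with a window, any of whose windows could hold it. Of the 17 members, 4 were called lower and none higher, and their median log2 fold change was -0.30. The background over the 756 tested genes with a motif was 13.0% lower, with a median of -0.09. Without WT1, WT3, KO2 or KO3, 2 of the 17 members were lower, and without WT2 or without KO1, 1 was higher. Values below 0 were found in 13 of the 17 members (76.5%), where the share over all tested genes was 49.2%. All KO libraries lay below all WT libraries in 9 of the 17 (52.9%, background 15.3%) and above them in 3 (17.6%, background 15.5%). Of the 194 members with a window and no motif, 15 were called lower and 5 higher, with a median of -0.06. The background over the tested genes with a window and no motif was 2.47% lower. A match is a description of letters and not a binding site. The 2 members with both motifs differed. Zfp219 was measured at 9.27, 6.03 and 9.09 FPKM in WT and 7.16, 8.30 and 7.53 FPKM in KO (log2 fold change -0.06, SE 0.18, adjusted p = 0.873). Zfp691 was measured at 0.926, 2.42 and 1.06 FPKM in WT and 2.54, 4.64 and 4.77 FPKM in KO (log2 fold change 1.45, SE 0.40, adjusted p = 0.0869), and although every KO library lay above every WT library it was not called.

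The 6 members called higher were Zfp971, Zfp446, Zfp961, Zfp119b, Zfp825 and Zfp207. Zfp971, a KRAB gene at chr2:178023284-178034022, was measured at 1.29, 1.42 and 1.47 FPKM in WT and 3.46, 3.68 and 3.38 FPKM in KO (log2 fold change 1.27, SE 0.12, adjusted p = 0.00358). It was called under all 16 alternatives of the fit, but 32.2% of its exon windows also occur in another gene, most often Zfp968. Zfp446, a SCAN gene at chr7:12977848-12985714, was measured at 1.98, 1.55 and 2.12 FPKM in WT and 3.10, 4.32 and 4.11 FPKM in KO (log2 fold change 0.99, SE 0.18, adjusted p = 0.0310). Zfp961, a KRAB gene at chr8:71951038-71993792, was measured at 2.54, 2.00 and 2.66 FPKM in WT and 3.999, 5.40 and 4.79 FPKM in KO (log2 fold change 0.95, SE 0.17, adjusted p = 0.0255). In both genes KO1 was the lowest KO library and WT2 the lowest WT library. Zfp119b, a KRAB gene at chr17:55938381-55949500, was measured at 2.75, 2.67 and 2.76 FPKM in WT and 4.14, 4.68 and 4.56 FPKM in KO (log2 fold change 0.69, SE 0.10, adjusted p = 0.0170). Zfp825, a KRAB gene at chr13:74480054-74493992, was measured at 9.07, 8.72 and 9.16 FPKM in WT and 11.2, 12.7 and 11.7 FPKM in KO (log2 fold change 0.40, SE 0.09, adjusted p = 0.0478). Zfp119b and Zfp825 share 10.1% and 16.8% of their exon windows with other genes. Zfp207, at chr11:80383279-80405733, encodes a microtubule-binding protein that helps load Bub3 onto kinetochores. It was measured at 35.6, 34.2 and 36.2 FPKM in WT and 42.7, 45.7 and 46.6 FPKM in KO (log2 fold change 0.35, SE 0.08, adjusted p = 0.0484), the smallest change among the called members. All but Zfp971 lost their calls without WT1, WT3, KO2 or KO3, and all 6 kept their direction. In all 28 called members, lower or higher, the libraries of the genotypes did not overlap on the rescaled FPKM, and in 27 on the FPKM as deposited. The call and the gap rest on the same libraries, so the gap is no further support for a call.

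**Figure D3:**
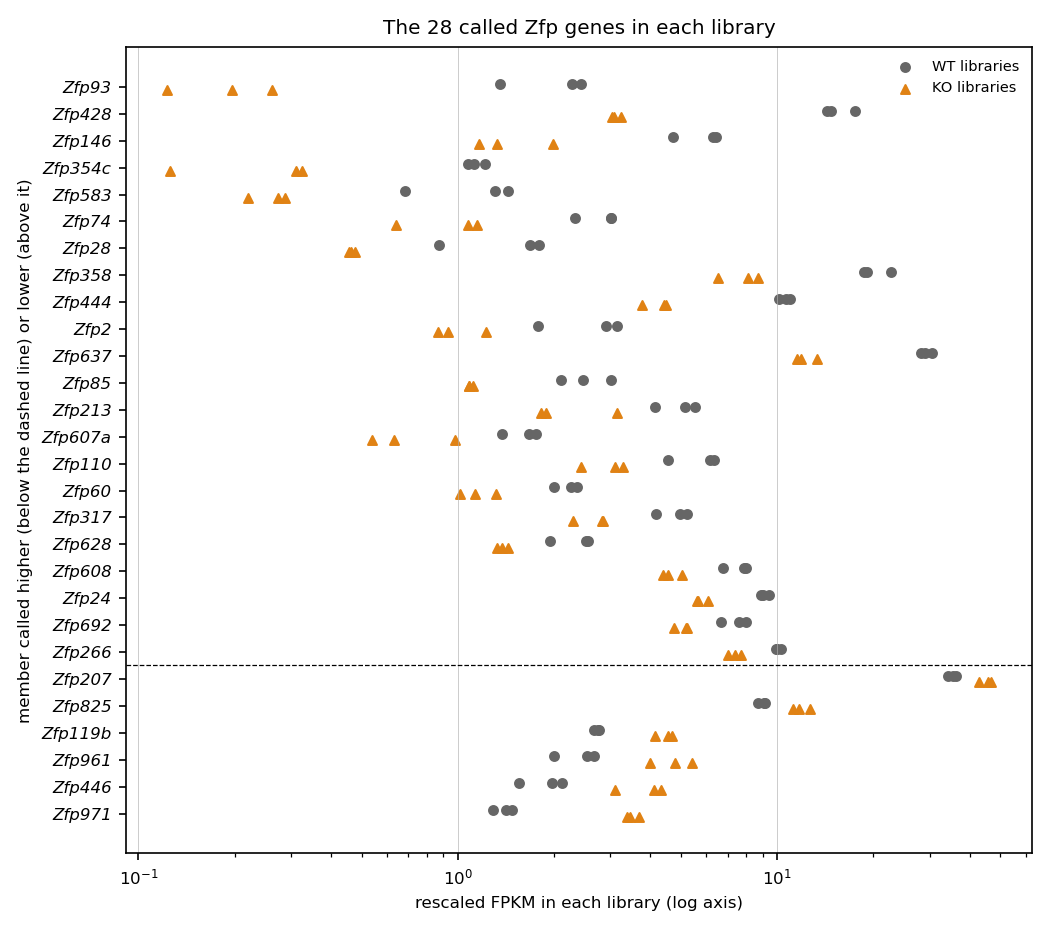
Rescaled FPKM in each library (log axis) of the 28 called Zfp genes, with WT libraries as circles and KO libraries as triangles, ordered by log2 fold change. The 22 genes above the dashed line have all KO libraries below all WT libraries, and the 6 genes below it have them above.

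Of the 230 members that were not called, several had changes as large as those of called members, and those named here were chosen after their values were seen. Zfp551, on chromosome 7, was measured at 1.496, 1.48 and 1.17 FPKM in WT and 0.215, 0.721 and 0.366 FPKM in KO (log2 fold change -1.58, SE 0.36, adjusted p = 0.0538). Zfp420, also on chromosome 7, was measured at 1.23, 0.905 and 1.29 FPKM in WT and 0.567, 0.636 and 0.560 FPKM in KO (log2 fold change -0.84, SE 0.19, adjusted p = 0.0566). Zfp612, on chromosome 8, was measured at 3.36, 3.66 and 3.40 FPKM in WT and 1.71, 2.40 and 2.29 FPKM in KO (log2 fold change -0.69, SE 0.16, adjusted p = 0.0528). The genotypes of these 3 genes did not overlap, and their adjusted p values lay just above the threshold. Zfp551 and Zfp420 were members through their WT values alone, since their means over all 6 libraries lay under 1 FPKM. On the other side, Zfp979 on chromosome 4 was measured at 2.08, 1.60 and 2.20 FPKM in WT and 2.58, 3.94 and 3.81 FPKM in KO (log2 fold change 0.77, SE 0.21, adjusted p = 0.0817), and 23.5% of its exon windows occur in other genes. Zfp867 on chromosome 11 was measured at 2.53, 1.21 and 2.03 FPKM in WT and 2.58, 3.61 and 3.37 FPKM in KO (log2 fold change 0.75, SE 0.28, adjusted p = 0.166). At an unadjusted p under 0.05, 54 members were lower in KO and 28 higher, beside 2268 and 2400 of all 19296 genes tested. The fold changes of all 258 members ranged from -2.84 to 1.45.

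The 6 members with the highest WT level were Zfp36, Zfp36l2, Zfp706, Zfp771, Zfp422 and Zfp207, and of these only Zfp207 was called. Zfp36, which encodes the mRNA decay factor tristetraprolin, was measured at 267, 117 and 250.1 FPKM in WT and 181, 140.2 and 145 FPKM in KO (log2 fold change -0.36, SE 0.32, adjusted p = 0.542). WT2 lay below all KO libraries while WT1 and WT3 lay above them, and without WT2 Zfp36 was called lower (log2 fold change -0.74, adjusted p = 0.0334, over a range of 0.0334 to 0.844 among the alternatives). Its relative Zfp36l2 was measured at 129.6, 103 and 127 FPKM in WT and 99.7, 101 and 104 FPKM in KO (log2 fold change -0.23, SE 0.11, adjusted p = 0.257), and was likewise called lower only without WT2 (-0.33, adjusted p = 0.0440, range 0.0440 to 0.852). The third CCCH gene, Zfp36l1, was measured at 6.53, 8.52 and 6.21 FPKM in WT and 9.05, 6.79 and 7.42 FPKM in KO (adjusted p = 0.673), so its groups overlapped. Zfp706 was measured at 95.0, 90.9 and 93.2 FPKM in WT and 98.7, 99.2 and 96.7 FPKM in KO (log2 fold change 0.08, SE 0.07, adjusted p = 0.564). Zfp771 was measured at 42.1, 40.4 and 41.7 FPKM in WT and 36.0, 24.8 and 25.8 FPKM in KO (log2 fold change -0.54, SE 0.15, adjusted p = 0.0863). Every KO library of Zfp771 was below every WT library, KO1 was the closest, and without KO1 the gene was called lower (-0.71, adjusted p = 0.00704, range 0.00704 to 0.327). Zfp422 was measured at 38.6, 34.0 and 40.5 FPKM in WT and 32.0, 42.5 and 43.2 FPKM in KO (adjusted p = 0.871).

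Among the members on a fixed list of genes with known roles, only Zfp110 and Zfp207 were called. Members outside that list were not assessed for their roles. Zfp523, known as Zfp76, is the paralog of Zfp143 whose protein binds the same DNA sequence in vitro. It was measured at 8.80, 5.58 and 8.07 FPKM in WT and 8.03, 9.50 and 8.83 FPKM in KO (log2 fold change 0.25, SE 0.18, adjusted p = 0.444), with WT2 the lowest library. Zfp445, which keeps imprinting marks, was measured at 4.39, 4.40 and 4.18 FPKM in WT and 4.24, 4.16 and 3.55 FPKM in KO (log2 fold change -0.12, SE 0.11, adjusted p = 0.573). Zfp809, which silences murine leukemia proviruses, was measured at 5.66, 4.95 and 5.63 FPKM in WT and 3.82, 4.34 and 4.36 FPKM in KO (log2 fold change -0.37, SE 0.11, adjusted p = 0.106), and its genotypes did not overlap. Zfp148 and Zfp281 encode related factors of GC-rich promoters, the second a regulator of pluripotency. Zfp148 was measured at 7.83, 5.48 and 7.72 FPKM in WT and 5.54, 6.12 and 6.16 FPKM in KO (log2 fold change -0.22, SE 0.16, adjusted p = 0.445). Zfp281 was measured at 6.43, 6.39 and 6.74 FPKM in WT and 6.81, 7.92 and 8.23 FPKM in KO (log2 fold change 0.22, SE 0.10, adjusted p = 0.247). Zfp521, a cofactor of progenitor cells with 27 fingers found, was measured at 2.44, 1.53 and 2.36 FPKM in WT and 2.64, 2.26 and 2.40 FPKM in KO (log2 fold change 0.22, SE 0.20, adjusted p = 0.554). Of these 3 only Zfp281 had genotypes that did not overlap. Zfp91, of the noncanonical NF-kB pathway, and Zfp217, a partner of the CtBP corepressor, had log2 fold changes of 0.05 and -0.13 with adjusted p values of 0.805 and 0.650.

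Zfp110 and Zfp369 encode NRIF proteins, which bind the p75 neurotrophin receptor. Zfp110 fell, from 6.16, 4.54 and 6.32 FPKM in WT to 2.42, 3.30 and 3.10 FPKM in KO (log2 fold change -0.92, SE 0.18, adjusted p = 0.0361), whereas Zfp369 was measured at 1.14, 1.74 and 1.304 FPKM in WT and 1.22, 1.23 and 1.06 FPKM in KO (log2 fold change -0.22, SE 0.19, adjusted p = 0.541). The difference between the 2 paralogs was not tested. Zfp451, a SUMO ligase, had a log2 fold change of -0.36 (adjusted p = 0.166) with genotypes that did not overlap. The ribosome assembly factors Zfp622 and Zfp593 had log2 fold changes of 0.11 and 0.05. Zfp410, which activates Chd4, Zfp326, of a complex that links transcription with splicing, and Zfp106, an RNA-binding protein, had values of 0.09, -0.01 and 0.20. Zfp592, Zfp687 and Zfp532, whose proteins act in a complex with Zmynd8, had values of 0.11, 0.06 and -0.19. The adjusted p values of these 8 genes lay between 0.372 and 0.973, and all 8 had overlapping genotypes.

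Of 137 members with a KRAB pattern, 11 (8.03%) were called lower and 4 (2.92%) higher, beside 2.99% and 3.01% of all tested genes, with a median log2 fold change of -0.03. The second of the 2 KRAB patterns sought was added after the data were seen, and by the first alone there were 99 members, of which 11 (11.1%) were lower and 1 (1.01%) higher, with a median of -0.05. Of 109 members with neither pattern, 8 (7.34%) were called lower and 1 higher, with a median of -0.12. Of 10 SCAN members, Zfp444, Zfp213, Zfp110 and Zfp24 were called lower and Zfp446 higher, with a median of -0.44. Zfp110, Zfp369 and Zfp202 had both patterns. Without WT1, WT3 or KO3 only 1 KRAB and 1 SCAN member were called lower, and without WT2 the KRAB members called lower numbered 19. None of the 5 members without an encoded protein was called. The largest value among them was that of the pseudogene Zfp125, measured at 3.50, 0.906 and 2.99 FPKM in WT and 1.70, 0.0526 and 0.271 FPKM in KO (log2 fold change -2.26, SE 0.93, adjusted p = 0.202), with overlapping genotypes. Members with at least 5% of exon windows shared with other genes numbered 69, of which 5 were called lower and 3 higher (median 0.02), and of the 189 others 17 were lower and 3 higher (median -0.14).

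Of 18 corepressor genes tested, none passed in either direction by limma, beside 2.99% lower and 3.01% higher of all tested genes. At an unadjusted p under 0.05, 4 were lower in KO and none higher, beside 2268 and 2400 of all 19296 genes tested. The median log2 fold change of the 18 genes was -0.12. By voom 1 was lower and none higher, 1 was lower without WT2, and 2 were lower and 1 higher without KO1. Trim28, the scaffold of the complex, was measured at 76.9, 56.7 and 73.5 FPKM in WT and 61.6, 66.7 and 64.4 FPKM in KO (adjusted p = 0.709). Setdb1, its histone methyltransferase, was measured at 4.94, 3.85 and 4.78 FPKM in WT and 3.45, 4.31 and 4.06 FPKM in KO (adjusted p = 0.469). WT2 was the lowest WT library for both. Hdac1, a histone deacetylase, had the largest value below 0, at 60.3, 40.7 and 55.5 FPKM in WT and 33.6, 33.0 and 31.9 FPKM in KO (log2 fold change -0.65, SE 0.15, adjusted p = 0.0569).

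**Figure D4:**
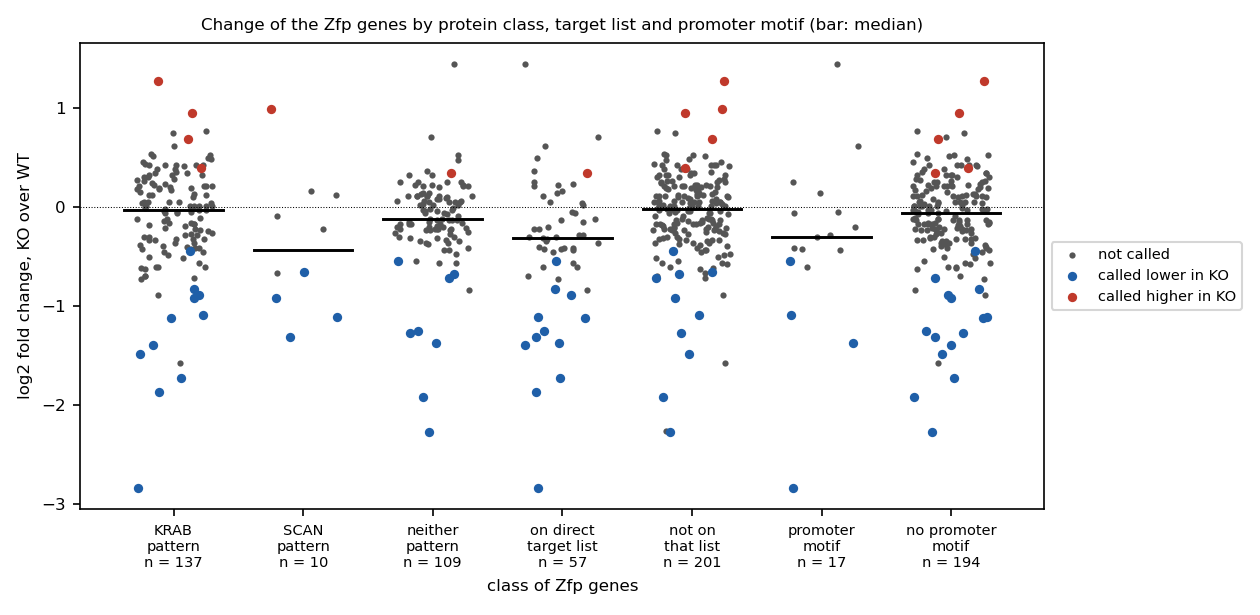
Log2 fold change of KO over WT for Zfp genes by protein pattern, by the study's list of direct ZNF143 targets and by promoter motif, with 1 point per gene and a bar at each median. The medians of the SCAN genes, the listed genes and the genes with a motif lie at -0.44, -0.31 and -0.30.

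The study listed genes with strong ZNF143 association at their promoters, a list built with ZNF143 ChIP-seq and with expression in these same libraries, so its direction is not independent evidence. It held 57 of the 258 members. Of these 57, 12 (21.1%) were called lower and 1 higher, with a median log2 fold change of -0.31, where the background over all tested genes of the list was 13.7% lower. Of the 201 members not listed, 10 (4.98%) were called lower and 5 higher, with a median of -0.02. The listed and lowered members were Zfp93, Zfp354c, Zfp583, Zfp28, Zfp358, Zfp444, Zfp637, Zfp85, Zfp213, Zfp60, Zfp317 and Zfp692, and the listed member called higher was Zfp207. Zfp428, Zfp146 and Zfp74 were among the 10 lowered members that were not listed. With 1 library left out, the listed members called lower numbered 4 (without WT1, WT3, KO2 or KO3), 11 (without KO1) or 16 (without WT2), with medians of -0.42 to -0.24, and on the FPKM as deposited they numbered 8, with a median of -0.20. Of the 17 members with a promoter motif, 14 were listed.

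Members lay on 20 chromosomes, and 11 of the 22 lowered members were on chromosome 7, which held 60 members. Of these 60 members, 18.3% were called lower and 1, Zfp446, was called higher, with a median log2 fold change of -0.22. The background over all 1456 tested genes of the chromosome was 5.01% lower. Of the 198 members on other chromosomes, 11 were called lower (5.56%) and 5 higher, with a median of -0.02. The 12 called members of chromosome 7 reached from position 4915217 to position 30169750. This stretch was drawn around the called members, so that all 12 lie in it by construction, and it held 39 of the 60 members. Zfp143 itself lies on the same chromosome at chr7:110061217-110095394, outside that stretch. With 1 library left out, the members of chromosome 7 called lower numbered 4 (without WT1, WT3 or KO3), 6 (without KO2), 11 (without KO1) or 13 (without WT2), and their median stayed between -0.34 and -0.21. On the FPKM as deposited 6 were lower, with a median of -0.11. No pair of called members lay within 50 kb of each other on any chromosome. Chromosome 17, with 38 members, held 1 called lower (Zfp213) and 1 called higher (Zfp119b), and its median was 0.04. Chromosome 13, with 22 members, held Zfp85, called lower, and Zfp825, called higher, with a median of -0.29. Chromosome 4, with 15 members, held none that was called and had a median of 0.16. Neighbouring members share sequence and origin and are not independent of each other.

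**Figure D5:**
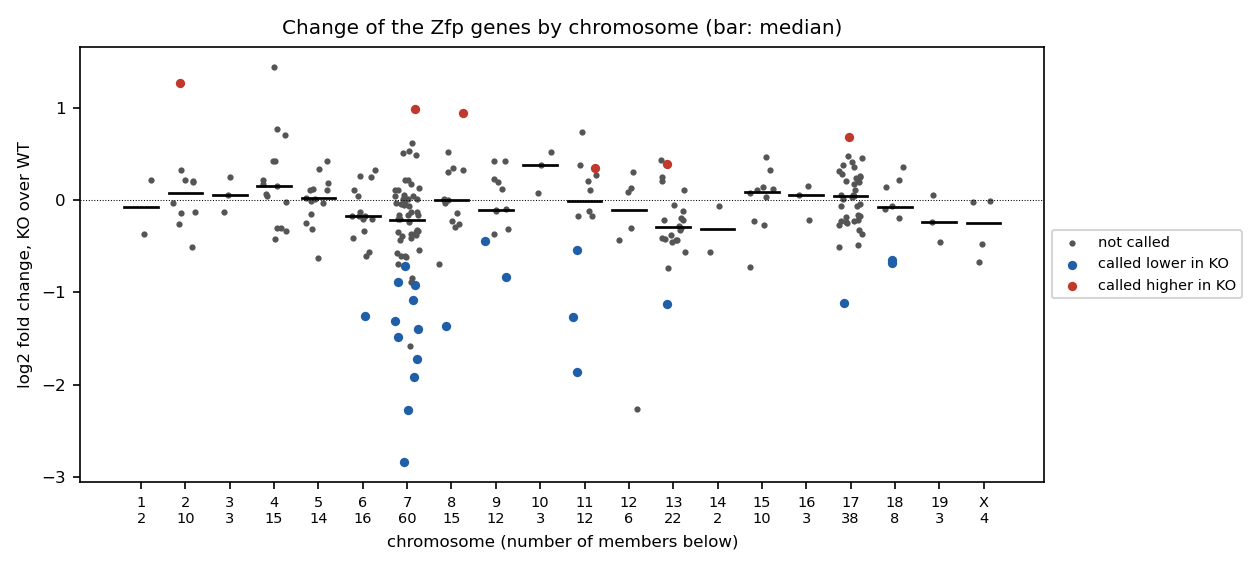
Log2 fold change of KO over WT for the 258 Zfp genes by chromosome, with 1 point per gene, a bar at each median and the number of members under each chromosome. Chromosome 7 holds 11 of the 22 members called lower.

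The threshold on WT level chose the members, and members close to it lean towards a high WT value. The 3 members just above it were Zfp940, Zfp605 and Zfp865, with WT means of 1.01, 1.01 and 1.03 FPKM as deposited, and the 3 genes just below it were Zfp780b, Zfp606 and Zfp316, with 0.989, 0.974 and 0.959. The members' WT means, rescaled, had a median of 2.94 FPKM and reached 211, and 172 of 258 lay under 5. When members were chosen by the mean of all 6 libraries instead, 19 of 254 were called lower and 6 higher. Zfp354c, Zfp583 and Zfp28, called lower in the main fit, were not members by that rule. When they were chosen by the KO mean, 17 of 251 were called lower and 8 higher, with a median of -0.02.

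Other zinc finger families were taken at the same WT mean of at least 1, where 3.95% of all tested genes were called lower and 2.57% higher. Calls of at most 1 gene in either direction say nothing about a family as a whole. Of 12 Zkscan and Zscan genes, most of which carry a SCAN domain, 1 was called lower and none higher, with a median log2 fold change of -0.07. The lowered gene was Zscan22, at 7.34, 6.31 and 6.25 FPKM in WT and 1.57, 2.60 and 2.27 FPKM in KO (log2 fold change -1.61, SE 0.19, adjusted p = 0.00792). Of 28 genes with a Zbtb symbol, most of which join a BTB dimerization domain to zinc fingers, Zbtb20 was called lower (log2 fold change -0.70, SE 0.13, adjusted p = 0.0327) and none higher, with a median of -0.11. The 28 genes include the opposite-strand genes Zbtb8os and Zbtb11os1, with log2 fold changes of 0.43 and 0.10. Of 11 Klf genes, Kruppel-like factors of GC-rich promoters, Klf11 was called higher (log2 fold change 0.81, SE 0.11, adjusted p = 0.00995) and none lower, with a median of 0.01. Zscan22 was called with any 1 library left out, whereas Zbtb20 and Klf11 lost their calls without WT1, WT3, KO2 or KO3. Differences between these families and the Zfp genes were not tested.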

How the data were processed

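RNA of HSLAM cells from 3 WT and 3 KO mice was analysed, and the study's other assays (ChIP-seq and HiC) were not used here. The authors prepared SMART-Seq v4 and Nextera XT libraries, trimmed reads with TrimGalore, aligned them with STAR to GRCm38 and counted fragments with FeatureCounts. They deposited FPKM of each library beside their own DESeq2 comparison (mean count, log2 fold change, standard error, statistic and p-values), which was not used. Groups came from the labels of the samples. The study describes the mice as littermates and does not say which libraries form a pair, and the correlations of same-numbered libraries, -0.09, -0.09 and 0.03, did not pair them.

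Multiplying the deposited FPKM by the listed gene length and by a divisor for each library gave whole fragments, within 0.05, for 99.985% of 138696 values. These FPKM were then divided by size factors (median of ratios, 0.906 to 1.201). Genes with a mean deposited FPKM of at least 0.1 were tested with limma 3.58.1 in R 4.3.3, with a variance trend, on log2(rescaled FPKM + 0.1), a scale that understates the change of low genes, and p-values were adjusted by Benjamini-Hochberg over all 19296 genes. The script was tested on simulated data. A count model on the recovered fragments (voom) called 744 genes lower and 657 higher and is an alternative. Positions, exons and proteins came from GENCODE M21 on GRCm38, where all 378 Zfp symbols matched, and promoter windows, 250 bases before to 50 after the start, came from RefSeq. Finger, KRAB and SCAN patterns were sought in proteins translated from the longest coding sequence, and a second KRAB pattern was added after the data were seen. Named genes were the 8 lowest and 8 highest called members with genotypes that did not overlap, the 6 highest by WT level, members with known roles, called members within 50 kb of each other and the 3 on either side of the threshold. Members and lists were chosen with earlier results of these data known. One marker of the fixed lists is not reported here. Alternatives were the scaling, pseudocount, filter, variance trend, replicate block, each library left out and the rule for members.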

Additional observations from a re-analysis of the deposited data

How the results depend on the processing

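The main values were 22 members lower, 6 higher and a median log2 fold change of -0.06. With a pseudocount of 0.01 or 1, no filter, a minimum mean FPKM of 1, voom or no variance trend, 18 to 26 members were lower, 4 to 6 were higher and the median stayed between -0.06 and -0.05. On the FPKM as deposited the counts were 11 and 3 and the median was 0.0471, above 0, and with the third KO library divided by its own total they were 13 and 3. The size factors of the main scaling also moved WT2 and KO1 (0.906 and 0.927). Leaving out 1 library gave 6 to 37 members lower, 1 to 10 higher and medians of -0.174 to -0.0297. The replicate numbers do not pair the libraries, and with that number fitted as a replicate block 5 members were lower and 1 higher, or 13 and 4 with a median of 0.0471 on the FPKM as deposited. Over members with under 5% of shared exon windows, 17 of 189 were lower and 3 higher, and the median was -0.14. Over other rules for membership, 17 to 19 were lower and 4 to 8 higher. Of the 28 called members, 6 were called in each of the alternatives of the fit and none changed sign. The number of fragments of the lowest member in any library was 8, so that changes of members near the threshold are the least certain, and intervals cover the spread among 3 mice per genotype.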

Other observations

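Of the 119 Zfp genes below the WT threshold, 95 were expressed enough to be tested, of which 11 (11.6%) were called lower in KO and 4 (4.21%) higher, beside 2.99% and 3.01% of all tested genes, with a median log2 fold change of -0.12. Without WT3 or KO3 only 1 was lower, without WT1 or KO2 there were 3, and without WT2 there were 12. The lowered genes were Zfp111, Zfp568, Zfp382, Zfp109, Zfp354b, Zfp85os, Zfp773, Zfp72, Zfp418, Zfp850 and Zfp114, named after their values were seen, and 8 of them lay on chromosome 7. Zfp568, which represses a placental form of Igf2 in the embryo, was measured at 0.860, 0.566 and 0.712 FPKM in WT and 0.0924, 0.0917 and 0.0772 FPKM in KO (log2 fold change -2.10, SE 0.24, adjusted p = 0.00706). Zfp111 was measured at 1.05, 0.787 and 0.932 FPKM in WT and 0.0357, 0.101 and 0.0983 FPKM in KO (log2 fold change -2.54, SE 0.26, adjusted p = 0.00487). Zfp429, Zfp960, Zfp422-ps and Zfp977 were called higher. Zfp429 was measured at 0.124, 0.299 and 0.166 FPKM in WT and 1.14, 1.00 and 1.18 FPKM in KO (log2 fold change 2.07, SE 0.27, adjusted p = 0.00947). Values this low rest on few fragments.

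The nearest tested genes on either side of the 22 lowered members were 43 genes, of which 5 were called lower and 1 higher, a set added after the data were seen, beside 2.99% and 3.01% of all tested genes. Of the 5 lowered neighbours, Zfp382, Zfp354b and Zfp85os are Zfp genes below the threshold described above, and the others were Gm38944 and Gm26742. Zfp85os and Gm26742 lie on opposite strands to Zfp85 and Zfp608 with no gap between them. As the counting kept no strand, their levels may not be separate from those of the lowered members. Zfp146 and Gm5113 start 125 bases apart on opposite strands, and Gm5113 was measured at 0.541 FPKM in WT and 0.641 FPKM in KO on average (log2 fold change 0.21, adjusted p = 0.560) while Zfp146 fell by 1.91 on the log2 scale. Zfp74 and C230062I16Rik start 468 bases apart on opposite strands, and the second had a log2 fold change of 0.32 (adjusted p = 0.516) beside -1.49 for Zfp74. Plaur, next to Zfp428, was called higher (0.74, adjusted p = 0.0246). These tests were by limma on the same fit.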
